A study of Rattus norvegicus with 24 samples.

Results

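The 7 spontaneous mammary carcinomas of the study, of 24 tissues in all, fell into 2 classes by how long their rats had been observed. The late class held 3 tumors of rats observed for 69 to 88 weeks (Spontaneous 4, 5 and 6), and the early class held 4 tumors of rats observed for 49 to 51 weeks (Spontaneous 1, 2, 3 and 7). The classes were taken from the observation times in the sample table of the study. The comparison asked whether carcinomas that arose without irradiation differed in CpG island methylation with the time over which they were collected.

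All rats were female Sprague-Dawley animals. From 9 weeks of age they received an AIN-76A diet with 23.5% corn oil, and the rats of the spontaneous group were never irradiated. The 7 tumors carried the sample numbers of 7 different rats, so the spread between them is a spread between animals, with 1 array per tumor. By the sample table, Spontaneous 4 was negative for the estrogen and the progesterone receptor, and the other 6 were positive for both. The other arrays held 3 normal mammary glands, 7 carcinomas after 2 Gy of gamma rays at 3 weeks of age (IR-3W) and 7 after 2 Gy at 7 weeks (IR-7W). They serve here as reference values. The normal glands came from rats observed for about as long as those of the early class, so no gland of the age of the late class was measured. Each tumor was a piece of whole tissue, in which methylation of the carcinoma cells and the share of other cells cannot be told apart.

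CpG islands are stretches of DNA rich in the dinucleotide CG, often at gene promoters, and most of them carry little methylation in normal tissue. Methylation of cytosine in an island at a promoter is commonly tied to a silent gene. In carcinomas some islands gain methylation while much of the remaining genome loses it, and in normal tissues the methylation of many islands also drifts with age. In females 1 copy of the X chromosome is inactivated, and its islands are methylated on that copy.

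On each array, DNA captured by a protein that binds methylated CpG carried the Cy5 dye, and unenriched DNA of the same tissue carried Cy3. The measure was the log2 ratio of Cy5 over Cy3, set to 0 at the median of the autosomal probes of each array. A level of 1 thus means that a probe was enriched to a degree 1 log2 unit above the middle probe of that array, and a shift common to all probes of an array is not seen. The 89403 autosomal probes were 45 to 60 bp long, with positions in the rn4 assembly. Probes at most 1000 bp apart were joined into 13856 runs, called islands below, and 12724 of these had at least 3 probes. The files do not name genes and no annotation of rn4 was used, so islands are given by position. The Cy5 signal was above background for 72.4% to 90.8% of the autosomal probes in the 7 tumors, with the lowest share in Spontaneous 3 and the highest in Spontaneous 5. The means were 84.3% ± 5.71 (SD, n = 3) in the late class and 82.6% ± 7.56 (SD, n = 4) in the early class.

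The scanning of the arrays was not balanced over the classes. Spontaneous 1, 2 and 3, all early, were scanned in the first of 2 scan periods, and Spontaneous 4, 5, 6 and 7 in the second. Spontaneous 7 was therefore the only early tumor scanned alongside late ones, and it shared a slide with Spontaneous 4. The classes could be set against each other within 1 slide (Spontaneous 4 and 7), within 1 scan day (Spontaneous 4, 5 and 7) and within 1 scan period, each time with Spontaneous 7 as the whole early class. Those values are given for the main measures of a whole array and for some of the named islands. They are not given for windows, for gained and lost islands or for the Cy3 signals. For measures of a whole array they have no test. For an island, the value within the scan day is that of a limma fit with the scan day as a block. Its p sets a lone early array against both late ones. The spread comes from Spontaneous 4 against 5, from Spontaneous 1 against 2, which shared a slide, and from the spread over all islands that limma borrows. Spontaneous 3 and 6 were each alone among the 7 on their scan day and add nothing to it.

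No measure of a whole array separated the late from the early carcinomas. The most methylated probes of an array, read at the 95th percentile of the log2 ratio, stood at 2.61, 2.77 and 4.12 in the late tumors 4, 5 and 6. In the early tumors 1, 2, 3 and 7 they stood at 3.94, 3.36, 3.104 and 2.49. The highest value belonged to a late tumor and the lowest to an early one, and the classes overlapped fully. The means were 3.17 ± 0.83 (SD, n = 3) late and 3.23 ± 0.60 (SD, n = 4) early, a difference of -0.06 (p = 0.943, two-sided exact permutation test over 35 splits). With 3 tumors against 4, the smallest p this test can give is 0.0286. Within the slide, the scan day and the scan period that held both classes, the late value was higher by 0.12, 0.20 and 0.67. In the irradiated tumors the second scan period was lower than the first by 0.65 in IR-3W and 0.37 in IR-7W. The IR-3W value turned to 0.11 higher without IR-3W 1, the array at 5.82, and the part of the scan period in the comparison of late with early tumors was not tested.

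The width of the distribution did not separate the classes either. The SD of the log2 ratios was 1.33 ± 0.24 (SD, n = 3) in the late tumors and 1.34 ± 0.19 (SD, n = 4) in the early tumors, with p = 0.971 by the same exact test. Within the slide, the scan day and the scan period the late value was higher by 0.02, 0.05 and 0.19. The share of probes above 1 was 23.1% ± 2.56 and 23.1% ± 3.34 in the late and early class, with p = 0.914 by the exact test. It lay at 20.2% in the late tumor 4 and at 20.3% and 20.2% in the early tumors 3 and 7, and at 24.1% or more in the other 4 tumors. Within the slide, the scan day and the scan period the late share was higher by 0.07, 2.49 and 2.97 percentage points, and Spontaneous 7 held the lowest share of the 7. On the 95th percentile the irradiated tumors ran from 3.11 to 5.82, above Spontaneous 3, 4, 5 and 7.

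**Figure D1:**
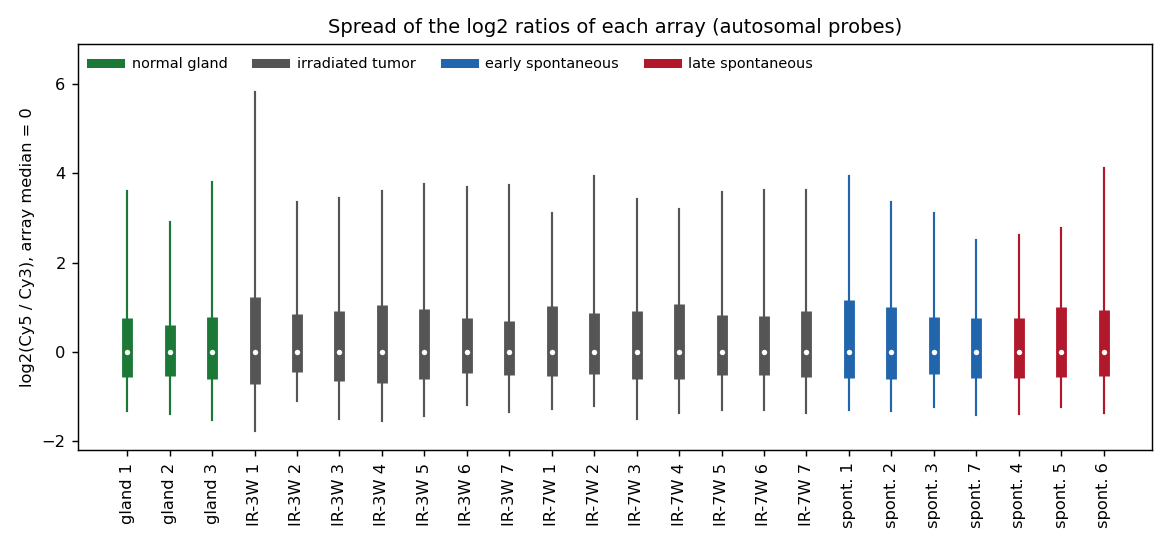
Spread of the log2(Cy5/Cy3) values of each of the 24 arrays, with the array median at 0 on the vertical axis. The thin line runs from the 5th to the 95th percentile, the thick bar from the 25th to the 75th, and the open point is the median. The late tumors (red) have upper ends at 2.61, 2.77 and 4.12 and the early tumors (blue) at 3.94, 3.36, 3.104 and 2.49, so neither class stands apart.

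Probes were next grouped by what they were in normal glands, a grouping that the late and early tumors do not enter. The 10464 probes most methylated in the glands, with a gland mean over 2, had a mean level of 2.44, 2.60 and 3.81 in the late tumors 4, 5 and 6. In the early tumors 1, 2, 3 and 7 it was 3.74, 3.19, 2.87 and 2.31. Spontaneous 6 and 1, of opposite classes, exceeded all 3 glands (2.68 to 3.62), and Spontaneous 4, 5 and 7 lay below all of them. The late mean was 2.95 ± 0.75 (SD, n = 3) and the early mean 3.03 ± 0.60 (SD, n = 4), with p = 0.914 by the exact permutation test. The late value was higher by 0.13, 0.22 and 0.65 within the slide, the scan day and the scan period.

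At the other end, the 10121 probes with a gland mean under -1, the least methylated in normal tissue, had levels of -0.77, -0.77 and -0.98 in the late tumors 4, 5 and 6. The early tumors 1, 2, 3 and 7 stood at -0.90, -0.91, -0.67 and -0.78. Every tumor of both classes lay above the gland values of -1.50 to -1.33, and the classes overlapped, with means of -0.84 ± 0.12 (SD, n = 3) and -0.82 ± 0.11 (SD, n = 4). The glands themselves set the class, so the gap to them is a description. The late minus early difference did not use them, and it was -0.02 (p = 0.829, exact permutation test), with 0.01, 0.01 and -0.06 within the slide, the scan day and the scan period. In the 3 classes between, the late and early means differed by 0.00, 0.00 and -0.03, with exact p-values of 0.914 to 1, and the Benjamini-Hochberg adjusted p was 1 in all 5 classes.

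**Figure D2:**
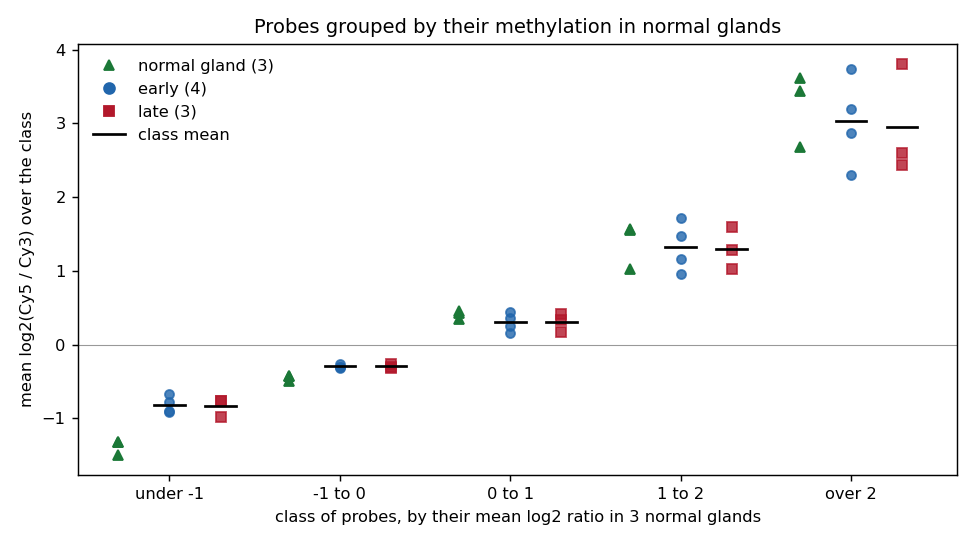
Mean log2(Cy5/Cy3) of each normal gland (triangles), early tumor (circles) and late tumor (squares) over 5 classes of autosomal probes, set by the mean level in the 3 glands. Black lines are the means of each tumor class. The late and early means differ by at most 0.08 in any class, and the spread of the tumors within a class is widest for probes over 2.

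The X chromosome, with 2494 probes, did not separate the classes. Relative to the autosomal median, its median level was 2.13, 2.12 and 3.31 in the late tumors 4, 5 and 6 and 3.34, 2.76, 2.39 and 1.96 in the early tumors 1, 2, 3 and 7. The ranges overlapped, with Spontaneous 1 and 6, of opposite classes, the highest. The means were 2.52 ± 0.68 (SD, n = 3) and 2.61 ± 0.59 (SD, n = 4), with p = 0.80 by the exact permutation test. Within the slide, the scan day and the scan period the late value was higher by 0.17, 0.17 and 0.56.

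Pairs of arrays did not group by class. Over the autosomal probes, Pearson's r was 0.860 to 0.882 for the 3 pairs of late tumors, 0.852 to 0.946 for the 6 pairs of early tumors and 0.850 to 0.925 for the 12 mixed pairs. These are descriptions over probes, which are not independent. The closest array to the late tumor 4 was the early tumor 7 on its own slide (r = 0.910), and the reverse held too. The late tumor 5 was closest to the early tumor 2 (r = 0.925), and the late tumor 6 to the early tumor 1 (r = 0.905). No late tumor had a late tumor as its closest array among the 7. Spontaneous 1 and 2, which shared a slide, were closest to each other (r = 0.946). Across all 21 tumors, the median r was 0.910 over the 10 pairs on 1 slide and 0.889 over the 200 pairs on different slides. The correlation with the mean of the normal glands was 0.829 ± 0.036 (SD, n = 3) in the late class and 0.837 ± 0.032 (SD, n = 4) in the early class (p = 0.771, exact permutation test). Within the slide, the scan day and the scan period it was higher in the late class by 0.020, 0.019 and 0.040. The lowest of the 7 were Spontaneous 7, 5 and 4 at 0.789, 0.807 and 0.810, which shared 1 scan day with an IR-7W array at 0.836. Spontaneous 4, the one receptor-negative tumor, lay inside the range of the others on this measure.

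No probe passed an adjusted p of 0.05 between late and early tumors (limma with Benjamini-Hochberg adjustment over 89403 probes, smallest adjusted p of 1.00), which is 0% of those tested. Without adjustment, 1713 probes (1.92% of those tested) had a p under 0.05, of which 901 (1.01%) were higher in the late tumors and 812 (0.908%) lower. The counts were 0 islands at the adjusted threshold and 175 (1.26%) at the unadjusted one, 83 of them higher (0.599%) and 92 lower (0.664%) in the late tumors. The methods' t-test gave 2149 probes and 267 islands at an unadjusted p under 0.05. It gave 183 probes and 21 islands at an unadjusted p under 0.005, a limit the study used, and 0 of either after Benjamini-Hochberg adjustment. The shares at 0.05 were below the 5% that such a threshold passes when nothing differs and features vary independently. The number of islands was 175 in the lowest of 20 equal bins of p and 1076 in the highest, against an even share of 692.8 per bin.

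**Figure D3:**
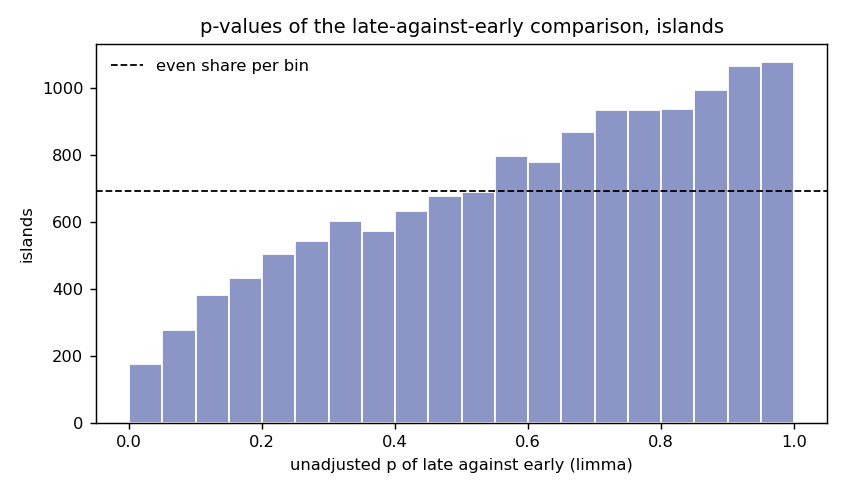
Number of islands (vertical axis) in 20 bins of the unadjusted limma p-value of late against early tumors (horizontal axis), for 13856 islands. The dashed line is the even share of 692.8 per bin. The lowest bin holds 175 islands and the highest 1076.

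The precision of the island comparison was limited by the 7 arrays. The 95% interval of the late minus early difference reached a median of 0.41 log2 units to each side over islands, and the absolute difference itself had a median of 0.09 and a 95th percentile of 0.38. For 11091 islands (80.0%) the whole interval lay between -1 and 1, and for 13792 (99.5%) between -2 and 2. These intervals are for 1 island at a time. They take no account of the scan periods or of the adjustment over 13856 islands. Larger differences could therefore also go uncalled, and one of 1.12 at chr18:117708-118422 did not pass the adjusted threshold. Only 18 islands had a mean difference over 1 in size, 8 of them higher and 10 lower in the late tumors.

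Islands of at least 3 probes whose late and early levels did not overlap were counted in each direction. There were 160 (1.26% of 12724) with all 3 late tumors above all 4 early ones, and 169 (1.33%) with all 3 below. For a given island, 1 of the 35 splits of 3 against 4 tumors gives full separation in a given direction. Where the classes do not matter, the share to be met in each direction is thus 0.0286, as a fraction. Both observed shares were below that, and the gap was not tested. The differences of the separated islands were small, with a median of 0.24 and -0.25, beside a median size of 0.09 over all 12724. Both lists were spread over all 20 autosomes. Islands methylated in normal glands were rare in them. A gland mean over 1 was found for 0.625% of the higher list and 2.37% of the lower list, against 16.4% of all islands of at least 3 probes. In the higher list, the late mean lay above the 3 glands for 42.5% of islands and the early mean for 18.1%, while 30% of late and 56.9% of early means lay below them. In the lower list, 18.3% of late and 52.7% of early means lay above the glands and 40.8% and 19.5% below. Over all 12724 islands, 31.1% of late and 33.0% of early means lay above and 31.9% and 30.1% below. The lists were chosen by the difference between the classes, so these shares describe them and test nothing.

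Among those islands, the 10 with the largest difference in each direction were followed tumor by tumor. None of them passed the adjusted threshold. The 10 that were higher in the late tumors differed by 0.72 to 1.12, and the 10 that were lower by -1.04 to -0.55.

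Of these, the island with the largest difference lay at chr18:117708-118422, with 8 probes. Its level was 1.30, 1.56 and 1.07 in the late tumors 4, 5 and 6 and 0.36, 0.35, -0.25 and 0.32 in the early tumors 1, 2, 3 and 7. The gap between the lowest late and the highest early tumor was 0.71, and all 3 late tumors exceeded the normal glands, which lay between -0.06 and 0.53. No early tumor did. The difference was 1.12 ± 0.20 (SE; 95% interval 0.65 to 1.58), with an unadjusted p of 0.000688 in limma and an adjusted p of 1.00.

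The sign of any comparison within a batch was fixed by the choice of islands whose classes do not overlap. Spontaneous 4 exceeded Spontaneous 7 on their shared slide by 0.98, and the difference within the scan day was 1.11 (unadjusted p of 0.00247 in limma with the scan day as a block). In the irradiated tumors the second scan period exceeded the first by 0.05. Leaving out each tumor in turn gave 0.97 to 1.24. With normexp background correction, the difference was 0.38. Irradiated tumors reached levels close to those of the late class, at up to 1.01 in IR-3W and 1.14 in IR-7W, although their medians of 0.43 and 0.31 were near the early tumors.

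All 8 probes of the island were higher in the late tumors, by 0.54 to 1.63. They held the pair of probes with the smallest p of the whole array among those higher in the late class. The probe A_45_P11344115 at chr18:117964-118008 stood at 1.05, 1.11 and 0.72 in the late tumors 4, 5 and 6 and at -0.38, -0.68, -0.89 and -0.73 in the early tumors 1, 2, 3 and 7. The classes were separated by more than 1 log2 unit, and the late tumors lay above the gland maximum of 0.37. Its difference was 1.63 ± 0.22 (SE), with an unadjusted p of 5.51e-05 and an adjusted p of 1.00. Its Cy5 signal was well above background in 3 of 3 late but in only 2 of 4 early tumors, and with normexp the difference was 0.40. The probe A_45_P26007148 at chr18:118177-118221 differed by 1.60 ± 0.26 (SE), with an adjusted p of 1.00.

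The island at chr14:97077990-97078548 had 6 probes. Its level was 0.61, 0.59 and 0.75 in the late tumors 4, 5 and 6, a narrow range, and -0.14, -0.24, -0.69 and 0.14 in the early tumors 1, 2, 3 and 7. The glands lay at -0.76 to -0.57, so that the late tumors were all above them by more than 1. The early tumors 1, 2 and 7 lay between the glands and the late tumors, and Spontaneous 3 lay within the gland range. The difference was 0.88 ± 0.20 (SE; 95% interval 0.43 to 1.34), with an unadjusted p of 0.00246 and an adjusted p of 1.00, and it was 0.28 with normexp. Spontaneous 7 was the early tumor nearest to the late ones, and the difference was 0.47 on the shared slide and 0.46 within the scan day (unadjusted p of 0.0546 in limma). The second scan period exceeded the first by 0.26 in the irradiated tumors. Irradiated tumors stood at -1.14 to -0.15 in IR-3W and -0.69 to 0.41 in IR-7W, all below the 3 late tumors.

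The island at chr8:43859656-43860950, with 12 probes, had levels of 1.30, 1.94 and 2.16 in the late tumors 4, 5 and 6 and of 0.79, 1.04, 0.75 and 1.13 in the early tumors 1, 2, 3 and 7. All 7 tumors were above the glands, at -0.11 to 0.30. Irradiated tumors stood at 0.33 to 1.97 in IR-3W and 0.48 to 1.52 in IR-7W. The late minus early difference was 0.87 ± 0.22 (SE), with an adjusted p of 1.00. On the shared slide it was 0.17, and within the scan day 0.49 (unadjusted p of 0.174 in limma).

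The named island with the most probes, 18, lay at chr7:102209117-102210933. Its level was 1.27, 1.26 and 2.04 in the late tumors 4, 5 and 6 and 0.85, 1.07, 0.18 and 0.86 in the early tumors 1, 2, 3 and 7. Glands lay at -0.01 to 0.38, and Spontaneous 3 was the one tumor among the 7 that stayed within their range. The difference was 0.78 ± 0.28 (SE), with 17 of the 18 probes higher in the late tumors and an adjusted p of 1.00. On the shared slide and within the scan day it was 0.40 (unadjusted p of 0.0996 in limma with the scan day as a block, against 0.0245 without), and without Spontaneous 6 it was 0.52. One of its probes, A_45_P21012320 at chr7:102210662-102210706, separated the classes widely, at 1.57, 1.65 and 1.91 late against 0.04, 0.58, 0.53 and 0.49 early (adjusted p of 1.00 in limma). All irradiated tumors lay at or below 0.82 at that probe. Over the whole island they stood at 0.34 to 0.88 in IR-3W and 0.76 to 1.31 in IR-7W, which reached above the late tumors 4 and 5.

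At chr4:92641810-92644000, with 16 probes, the late tumors 4, 5 and 6 stood at 1.31, 0.90 and 0.70 and the early tumors 1, 2, 3 and 7 at 0.24, 0.03, 0.02 and 0.64. The early tumor scanned together with the late ones was the one close to them, and the gap between the classes was 0.06. Irradiated tumors stood at 0.15 to 1.32 in IR-3W and -0.34 to 0.70 in IR-7W. The second scan period exceeded the first by 0.30 in the irradiated tumors, and with those tumors in the fit and the period as a term the difference went from 0.74 to 0.48. On the 7 arrays alone it went from an unadjusted p of 0.00962 in limma to 0.47 (p of 0.123) with the scan day as a block and to 0.33 (p of 0.263) with the scan period as a block.

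The other 5 islands that were higher in the late tumors lay at chr12:25402361-25402596, chr8:19386234-19387073, chr10:85000162-85000561, chr10:95413299-95414166 and chr5:136348521-136348866, with 3 to 9 probes. Their differences were 0.72 to 1.05. The one at chr10:85000162-85000561 depended on the setting, with 0.79 over all 4 probes, 0.10 over probes above background in both channels and 1.47 with the scan day as a block. The one at chr10:95413299-95414166 rested on Spontaneous 6, at 2.44 beside 0.86 and 1.23 in the late tumors 4 and 5, and its difference fell from 0.76 to 0.29 without that tumor. Its 95% interval of -0.05 to 1.57 held 0. The one at chr8:19386234-19387073 went from 0.92 to 0.61 without the same tumor. The island at chr5:136348521-136348866 had no probe above background in both channels in all 7 tumors, and none of its 3 probes had a Cy5 signal well above background in any early tumor, so its difference of 0.72 compares dim signals. With normexp it was 0.15. With normexp the 10 higher islands differed by 0.15 to 0.38. In 8 of the 10 higher islands all 3 late tumors exceeded all glands, and in 1 all 4 early tumors did as well. For the 10 lower islands the counts were 1 with all 3 late tumors and 4 with all 4 early tumors above all glands. The choice by the class difference partly fixes these counts, so they describe the islands and test nothing.

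Islands that were lower in the late tumors were separated by narrower gaps, of 0.00 to 0.15, against 0.02 to 0.71 for the higher ones. At chr18:28321098-28321511, with 4 probes, the late tumors 4, 5 and 6 stood at 0.16, 0.16 and -0.78 and the early tumors 1, 2, 3 and 7 at 0.35, 1.61, 1.37 and 0.22. Spontaneous 2 and 3 were high, and the other early tumors were near the late ones. The difference was -1.04 ± 0.42 (SE; 95% interval -2.02 to -0.06), with an adjusted p of 1.00. All 4 early tumors and 2 late ones were above the glands, at -0.49 to -0.11. On the shared slide the difference was -0.06.

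At chr7:49921550-49921893, with 4 probes, the early tumors 1, 2, 3 and 7 stood at 2.15, 1.75, 0.88 and 0.77 and the late tumors 4, 5 and 6 at 0.60, 0.75 and -0.03, beside glands at -0.52 to 0.39. Both classes held tumors above the glands, 4 of 4 early and 2 of 3 late. The difference of -0.95 ± 0.38 (SE) was -0.17 on the shared slide. IR-3W tumors ranged from -0.49 to 2.33 and IR-7W tumors from 0.97 to 1.82.

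At chr14:110532879-110533244 a single early tumor carried the difference. Spontaneous 1 stood at 1.496, the other early tumors between -0.34 and 0.13, and the late tumors between -0.61 and -0.41. The difference of -0.81 fell in size to -0.40 without it.

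The island at chr11:41510770-41511574 lay at low levels, and 3 of its 5 probes had a Cy5 signal that was not well above background in any of the 7 tumors. Over all 5 probes the late tumors 4, 5 and 6 stood at -1.12, -0.99 and -1.07 and the early tumors 1, 2, 3 and 7 at -0.88, -0.50, 0.09 and -0.40. The difference of -0.64 ± 0.22 (SE) was -0.15 over the 2 probes above background in both channels and -0.06 with normexp background correction, with an adjusted p of 1.00.

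The other 6 islands lay at chr17:88070123-88070690, chr6:104732239-104732496, chr1:83905219-83905617, chr4:80613034-80613589, chr5:49503963-49504518 and chr5:120089643-120090118, with 3 to 7 probes and differences of -0.81 to -0.55. The one at chr5:120089643-120090118 was at a high level in all tissues, with late tumors at 2.08 to 2.57, early tumors at 2.62 to 3.07 and glands at 1.89 to 3.29. At chr5:49503963-49504518 the difference went from -0.56 to -0.29 without Spontaneous 6, and at chr1:83905219-83905617 from -0.64 to -0.39 without Spontaneous 5. The chr1 island had 2 of its 3 probes above background in both channels in all 7 tumors, and over these its difference was -0.28. Over the 10 lower islands, the median size of the difference was 0.68 for the classes and 0.24 for the pair of tumors on the shared slide. For the 10 higher islands these were 0.83 and 0.71. Unadjusted limma p-values were under 0.05 for 9 of the 10 higher and 8 of the 10 lower islands, and with the scan day as a block for 4 and 1 of them, with none past the adjusted threshold in either fit. The islands were picked for the size of this same difference, so these counts describe the choice. Over all 13856 islands the shares were 1.26% and 1.96%.

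Of the 3 probes with the smallest p among those lower in the late class, 1 had a Cy5 signal above background. A_45_P17881265 at chr3:105625207-105625251 stood at 1.39, 0.88 and 1.03 in the late tumors 4, 5 and 6 and at 2.53, 2.22, 2.67 and 2.28 in the early tumors 1, 2, 3 and 7. The classes did not overlap, and the 9 probes of the island together differed by -0.13 (unadjusted p of 0.285 in limma). A_45_P18895252 at chr4:149422261-149422309 and A_45_P24697110 at chr15:18815460-18815519 had a Cy5 signal that was not well above background in any of the 7 tumors, so no difference is given for them. None passed the adjusted threshold.

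**Figure D4:**
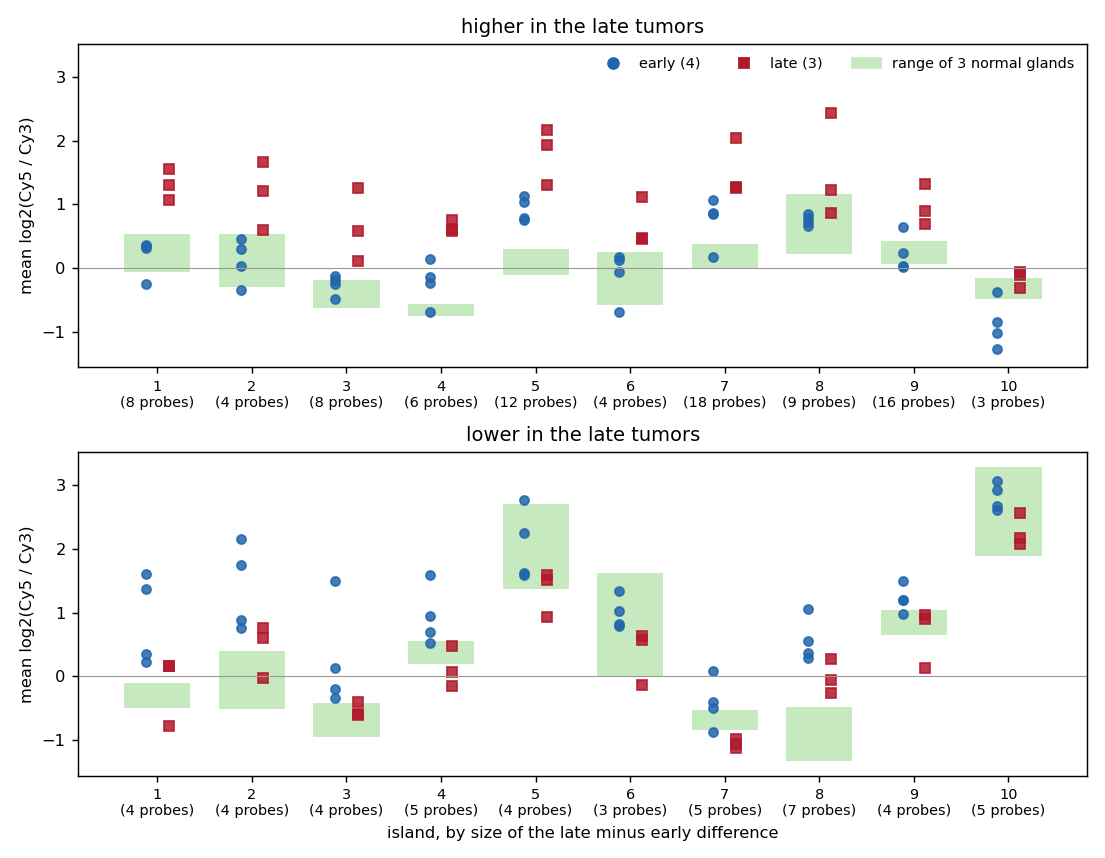
Mean log2(Cy5/Cy3) of each early tumor (blue circles) and late tumor (red squares) at the 10 islands with the largest positive (upper panel) and negative (lower panel) late minus early difference, from the largest in size at the left; green boxes span the 3 normal glands. Islands were picked because the classes did not overlap. Upper island 1 has the widest gap, 0.71, and in the lower panel every gap is at most 0.15.

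Larger regions were compared as windows of 1 Mb with at least 5 probes. None of 1889 passed the adjusted threshold in limma. Without adjustment, 16 (0.847%) had a p under 0.05, 14 higher (0.741%) and 2 lower (0.106%) in the late tumors. That split turned to 3 higher and 6 lower without Spontaneous 3 and to 12 higher and 19 lower without Spontaneous 7. For 1841 windows (97.5%) the 95% interval of the difference lay between -1 and 1. The smallest p belonged to the window 92000001 to 93000000 of chromosome 4, whose 16 probes were all those of the island at chr4:92641810-92644000. The third smallest, 102000001 to 103000000 of chromosome 7, was likewise the island at chr7:102209117-102210933 alone. The window with the most probes among the 6 smallest, 99000001 to 100000000 of chromosome 14 with 39 probes, stood at 0.63, 0.83 and 1.33 in the late tumors 4, 5 and 6. In the early tumors 1, 2, 3 and 7 it stood at 0.69, 0.44, 0.36 and 0.38. The late tumor 4 lay below the early tumor 1, so the classes overlapped, with a difference of 0.46 ± 0.17 (SE) and an adjusted p of 1.00.

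Gains and losses against normal tissue were then counted in each tumor. An island was counted as gained where its level exceeded the highest of the 3 glands by more than 1, and as lost where it fell short of the lowest by more than 1. The late tumors 4, 5 and 6 had 101, 518 and 667 gained islands of 12724, and the early tumors 1, 2, 3 and 7 had 803, 468, 142 and 133. Each class held tumors with few and tumors with many. The means were 429 ± 293 (SD, n = 3) and 387 ± 318 (SD, n = 4), with p = 0.914 by the exact permutation test, and irradiated tumors ranged from 73 to 2250. Lost islands were fewer, at 46, 38 and 6 in the late tumors and 13, 16, 14 and 78 in the early ones (p = 1 by the exact test). Spontaneous 7 and 4, on 1 slide, had the most losses of the 7.

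Few gains were common to a whole class. Of 1282 islands gained in any of the 7 tumors, 560 were gained in 1 alone, with 207 of these in Spontaneous 6 and 196 in Spontaneous 1. Of the 12724 islands, 48 were gained in all 3 late tumors and 33 in all 4 early tumors. There were 13 gained in all 7, which is 27.1% of the former and 39.4% of the latter. All of 3 tumors is an easier condition to meet than all of 4, so the late and early counts in this paragraph are not like for like. A single island was gained in all 3 late tumors and in no early tumor, the one at chr14:97077990-97078548 described above. None was gained in all 4 early tumors and in no late tumor, and no island was lost in all tumors of a class. When each array was first scaled to the same SD, the number gained in all late tumors and in no early tumor was 5, and the number gained in all early tumors and in no late tumor was 0. With that scaling, 3 islands were lost in all 3 late tumors and 1 in all 4 early tumors. With a margin of 0.5 in place of 1, and no scaling, 4 islands were gained in all late tumors and in no early tumor and 2 were lost in all early tumors and in no late tumor. At that margin 72 islands were lost in all late tumors and 73 in all early tumors, 19 of them in all 7. Without scaling and at a margin of 1, the gained islands were most numerous in Spontaneous 1 and 6, the arrays with the highest 95th percentile. With arrays scaled to the same SD, Spontaneous 5 had the most at 792, and Spontaneous 1, 2 and 6 had 625, 482 and 467. The part of the spread of an array in its count was not tested.

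**Figure D5:**
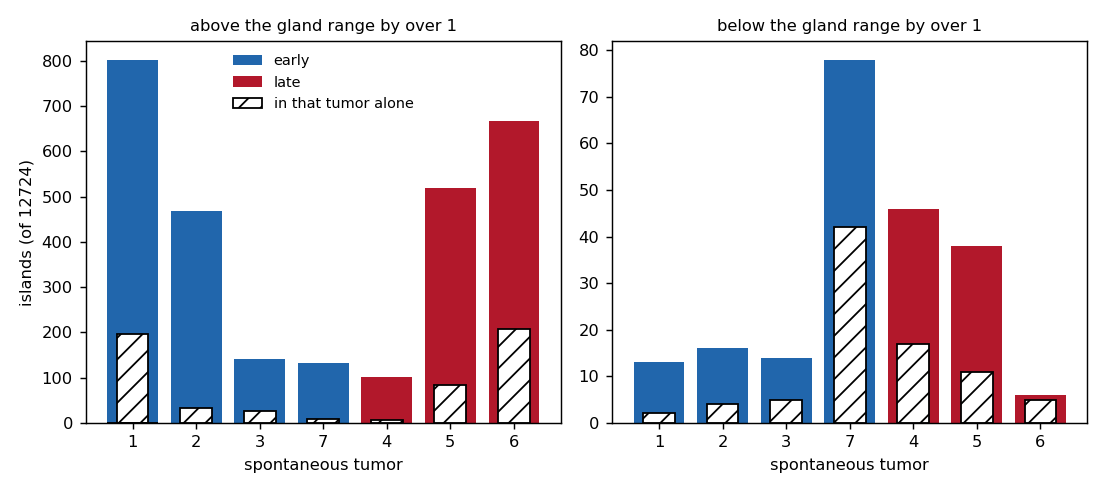
Number of islands of at least 3 probes whose level was above the highest normal gland by over 1 (left) or below the lowest gland by over 1 (right), for each early (blue) and late (red) tumor. Hatched bars count islands beyond the margin in that tumor alone. Spontaneous 1 (early, 803) and 6 (late, 667) have the most gains and Spontaneous 7 (early, 78) the most losses. These are counts without scaling. With arrays scaled to the same SD, Spontaneous 5 has the most gains (792) and Spontaneous 7 the most losses (203).

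The Cy3 channel, which holds unenriched DNA, was used to look at chromosome dosage. For each chromosome the median log2 Cy3 signal was taken relative to all autosomes and to the mean of the glands. Across 20 autosomes and the X chromosome, the smallest exact p between late and early tumors was 0.0857, and all adjusted p-values were 1. The largest difference of means was 0.05 on chromosome 4 (p = 0.371, exact permutation test), where the late tumor 5 stood at 0.11 and the other 6 tumors between -0.07 and -0.04. A normal gland reached 0.14 on the same chromosome. On chromosome 1 the early tumor 3 stood at 0.08, the other 6 tumors between -0.02 and -0.0008 and the glands between -0.01 and 0.01. On the X chromosome all 7 tumors, at 0.04 to 0.23, were above the glands, at -0.02 to 0.02, with the highest in the late tumor 4 and means of 0.11 ± 0.11 (SD, n = 3) late and 0.13 ± 0.06 (SD, n = 4) early. No such deviation was shared by the late tumors and missing from the early ones.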

How the data were processed

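The authors deposited the scanner output of 1 dual-channel array per sample, made with Agilent Feature Extraction 10.7.3.1 on the rn4 assembly. The deposited spot intensity values, per the file headers, had been background-subtracted, detrended and dye-normalized, and the series matrix deposited by the authors held log2 ratios of the same arrays, used as an alternative. Per the file headers, the deposited log10 ratio was that of the same processed signals of Cy5 over Cy3, and the scanner software's p-values for it were not used. Depth has no meaning for arrays, and the number of arrays limits the precision.

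Control probes and outlier spots (1 to 35 per array of the 7 tumors) were left out. For every array, log2 of Cy5 over Cy3 (processed signals) had its autosomal median subtracted. R 4.3.3 with limma 3.58.1 was used to test probes, islands and windows on the 7 arrays alone, with Benjamini-Hochberg adjustment over all features. For array means, the exact permutation test was two-sided. The methods' t-test was run on the same log2 ratios, not on the score that the authors derived from them by melting temperature. The fit was tested on simulated data. Python 3.11.15 and statmod 1.5.0 were also used.

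The classes of 3 and 4 tumors, the measures and the islands were chosen with earlier results of these data known. Named islands (at least 3 probes) were to be the 10 of largest difference in each direction past an adjusted p of 0.05. As none passed, they were the 10 of largest difference whose classes did not overlap. Named probes were the 3 of smallest p in each direction. Planned lists of genes were not analysed here, because rn4 annotation was not used, and probe sequences were not used here either. Alternatives changed the background correction, normalization, probe filter, batch terms, test and island definition, and left out each tumor in turn.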

Additional observations from a re-analysis of the deposited data

Results flagged for a closer look

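In 55 measures over the 7 tumors, the tumor at one end was tested against the others by its gap as a share of the whole range (Dixon's test at the 95% level), and 7 were singled out. Chance alone singles out about 1 group in 20. Of the 7, 5 were Cy3 signals of a chromosome. Spontaneous 3 (early) stood at 0.0828 on chromosome 1, -0.0301 on chromosome 2 and -0.0525 on chromosome 17, with the nearest other tumor at -0.0008, 0.0035 and -0.0147. Spontaneous 5 (late) stood at 0.107 on chromosome 4 and -0.0234 on chromosome 5, with the nearest tumor at -0.0411 and -0.0056. The chromosome 4 value lay inside the range of the normal glands (-0.07 to 0.14), and the chromosome 1 value lay outside theirs (-0.01 to 0.01). On chromosome 4, gland 1 alone made the upper end of the range, with glands 2 and 3 both at -0.07. The arrays IR-3W 2 and 3 stood at 0.18 and 0.22 there. The other 2 were islands chosen for their difference. Spontaneous 6 stood at 2.44 at chr10:95413299-95414166, where the next tumor was at 1.23, and Spontaneous 1 at 1.496 at chr14:110532879-110533244, where the next was at 0.13.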

How the results depend on the processing

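No paired analysis was possible because the late and early tumors came from different rats. The count of 0 probes, islands and windows at an adjusted p under 0.05 held under every alternative run, and each tumor left out in turn also gave 0. The smallest adjusted p of any of them was 0.546, for probes with all 24 arrays in the fit. Counts at an unadjusted p under 0.05 moved for probes from 1713 to 2623 (quantile normalization), 449 (normexp), 703 (probes above background in both channels), 3022 (array weights), 3296 (slide as a random block) and 3364 (scan day as a block). For islands they moved from 175 to 338 (quantile), 56 (normexp), 267 (the methods' t-test), 417 (array weights), 310 (slide) and 271 (scan day). For windows they moved from 16 to 51 (quantile), 32 (equal SD), 4 (normexp), 33 (slide), 28 (21 tumors with scan period) and 3 of 511 (windows of 5 Mb). Leaving out a tumor gave 1347 to 2509 probes, 125 to 359 islands and 9 to 31 windows, with 359 islands and 31 windows without Spontaneous 7, 263 islands without Spontaneous 5 and 9 windows without Spontaneous 3. The balance of the probe calls moved too. Without Spontaneous 7, 979 of 2509 probes were higher in the late tumors, and with the scan day as a block 2196 of 3364 and with normexp 182 of 449 were, against 901 of 1713. Islands split into 83 higher and 92 lower, but into 90 and 269 without Spontaneous 7, 78 and 185 without Spontaneous 5, 158 and 84 without Spontaneous 4 and 188 and 83 with the scan day as a block. Of the windows, 14 of 16 were higher in the late tumors, with 37 of 51 under quantile normalization, 26 of 32 with equal SD, 24 of 33 with the slide and 27 of 28 with scan period, but 3 of 9 without Spontaneous 3 and 12 of 31 without Spontaneous 7. The causes were not tested.

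Differences of array measures lay so near 0 that their sign was not stable. The share of probes above 1 went from 0.08 to -0.25 (series matrix), -1.11 (normexp) and -0.45 (bright probes) percentage points. For gland classes, from the least methylated upward, normexp gave 0.0413 under -1 and -0.0199 at -1 to 0, where bright probes gave -0.0122 and classes set by gland 3 alone -0.00586. At 0 to 1 the difference was 0.0095 (quantile), 0.0045 (equal SD), 0.000847 (series matrix), 0.0036 (classes of equal size) and 0.0069 (gland 3 alone), and at 1 to 2 it was 0.0103 (quantile). Lost islands differed by 0.33 with a margin of 2 and by 7 with equal SD. Within the scan period of both classes, chosen after seeing the data as were the margins, the difference was 0.67 for the 95th percentile, 0.0398 for the correlation with the glands, 0.14, 0.35 and 0.65 for the upper 3 gland classes and 0.56 for the X chromosome. Leaving out each tumor in turn gave -0.148 to 0.0742 for the SD, -0.54 to 0.22 for the 95th percentile, -0.89 to 1.53 for the share above 1, -0.0286 to 0.00282 for the correlation with the glands and -0.49 to 0.15 for the X chromosome. The 5 gland classes gave -0.0608 to 0.0480, -0.0166 to 0.0130, -0.0563 to 0.0676, -0.17 to 0.11 and -0.51 to 0.18. Gained islands gave -77 to 206.0 and lost islands -8.25 to 15.7. No exact p under these alternatives was below 0.257, and 3 against 3 and 2 against 4 tumors cannot go below 0.1 and 0.0667.

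The 20 named islands kept their direction in 299 of 299 values over the alternatives and in 140 of 140 with a tumor left out, which non-overlapping classes partly fix. In 56 of the former the difference was smaller by over 1.5 times, which were 18 of 20 islands with normexp, 14 with the scan day and 8 with the scan period as a block, and 16 values under 6 other settings. It was larger by over 1.5 times in 3, at chr10:85000162-85000561 with the scan day (1.47) and the scan period (1.37) as a block and at chr7:49921550-49921893 over bright probes (-1.44). The probe A_45_P24697110, whose Cy5 signal was at background, went from -1.15 to 0.0449 with normexp. The planned gene lists, the named islands with runs of 500 bp, the SD of arrays scaled to equal SD, and the SD, 95th percentile and share above 1 under quantile normalization were not run.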
